A study of Mus musculus with 2 samples.

Results

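Amino acids enter and leave muscle fibres through membrane carriers of several solute carrier (Slc) families, and the genes of 7 such families were compared between denervated and control gastrocnemius, a mostly fast-fibre calf muscle. The members are the genes whose probe name begins with Slc1a, Slc3a, Slc6a, Slc7a, Slc36a, Slc38a or Slc43a followed by a digit. The array holds 96 such probes for 56 genes, out of 41174 probes and 20326 named genes in all. RNA came from male C57BL/6 mice. The denervated group had lost the nerve supply of the muscle for 14 days from the age of 7 weeks and was sampled at 9 weeks. The control group was also 9 weeks old and is called a sham control in its title and only a control elsewhere, so whether these mice had surgery is unclear. RNA of 6 mice went into 1 pool per group, and a single array was run for each pool. There are thus no replicates, no test was possible, and each difference describes these 2 pools.

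These carriers differ in what they move and what drives them. The Slc1 family carries glutamate and aspartate with sodium, or exchanges small neutral amino acids. Most transporters of the Slc7 light chain type need a heavy chain of the Slc3 family to reach the membrane and work as exchangers, whereas the cationic Slc7 carriers work alone and take up arginine and lysine. Slc6 carriers use sodium and chloride to take up transmitters, taurine, creatine and amino acids. Slc38 carriers load cells with glutamine and other neutral amino acids, Slc36 carriers move small amino acids with protons at the cell surface or the lysosome, and Slc43 carriers pass branched-chain and other large neutral amino acids by facilitated diffusion. Leucine and glutamine that reach the fibre feed protein synthesis and the nutrient-sensing kinase complex mTORC1, and some of these genes are known targets of ATF4, the transcription factor of the amino acid response.

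Each gene takes the value of its brightest probe. Signals are given on a scale on which 100 is the 75th percentile of all probes on that array, so a ratio of the 2 signals is the fold difference. A probe is called measured when it was well above background and unsaturated on both arrays. The value after ± is the error estimate of the scanner software, which is technical and leaves out the spread between mice. Signals of different probes cannot be set against each other. Pairs of signals are given with the control pool first. Of 56 members, 40 were measured, 5 were above background on the control array only, 1 on the denervated array only, and 10 on neither. Of all genes, 4.4% were above background on the control array only, 1.87% on the denervated array only and 21.2% on neither. Slc7a6os is among the 40 by its name alone: it lies beside Slc7a6 on the opposite strand and is no transporter.

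The glycine transporter gene Slc6a9 and the taurine transporter gene Slc6a6 gave higher signals in the denervated pool, while the arginine carrier Slc7a2, the proton-coupled carrier Slc36a2, the imprinted Slc38a4 and the glutamate carrier Slc1a1 gave lower ones. For Slc38a4 this rests on its brightest probe, and its dimmer probe gave a log2 difference of only -0.26. At 2-fold or more, 4 of the 40 measured members were higher after denervation and 10 were lower. Among all 14747 measured genes, 7.01% were higher by that much and 8.51% lower. The members' shares were 10% and 25%. Their median log2 difference, denervated minus control, was -0.25, against -0.11 for all measured genes, and 16 members lay above 0, where 43.1% of all measured genes did. Scaling by spike-in control RNA in place of the 75th percentile moved every gene up by 0.40, the members' median to 0.15 and the counts to 10 higher and 4 lower. With that scaling 14.8% of all genes were higher and 4.12% lower, so a difference between about -0.40 and 0 has no settled direction.

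Of the 10 lower members, 9 had a mean signal under 100. Among 15 measured members with a mean signal under 10, 5 were at least 2-fold lower and 1 higher, where 10.5% and 5.29% of all genes this dim were. Of 14 members between 10 and 100, 4 were lower and 1 higher, against 8.96% and 8.53% of genes. Of 11 members over 100, 1 was lower and 2 were higher, against 7.51% and 6.67%. Dim genes as a whole sat lower in the denervated pool, with a median of -0.35 under a signal of 10 and -0.023 over 100. Subtracting the running median of genes of like signal, an adjustment chosen after the data were seen, left 4 members higher and 4 lower, which is 10% each way, where 8.58% of all genes were higher and 6.55% lower. The higher ones were Slc6a9, Slc6a6, Slc43a2 and Slc7a14, and the lower ones Slc7a2, Slc36a2, Slc38a4 and Slc1a1.

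**Figure D1:**
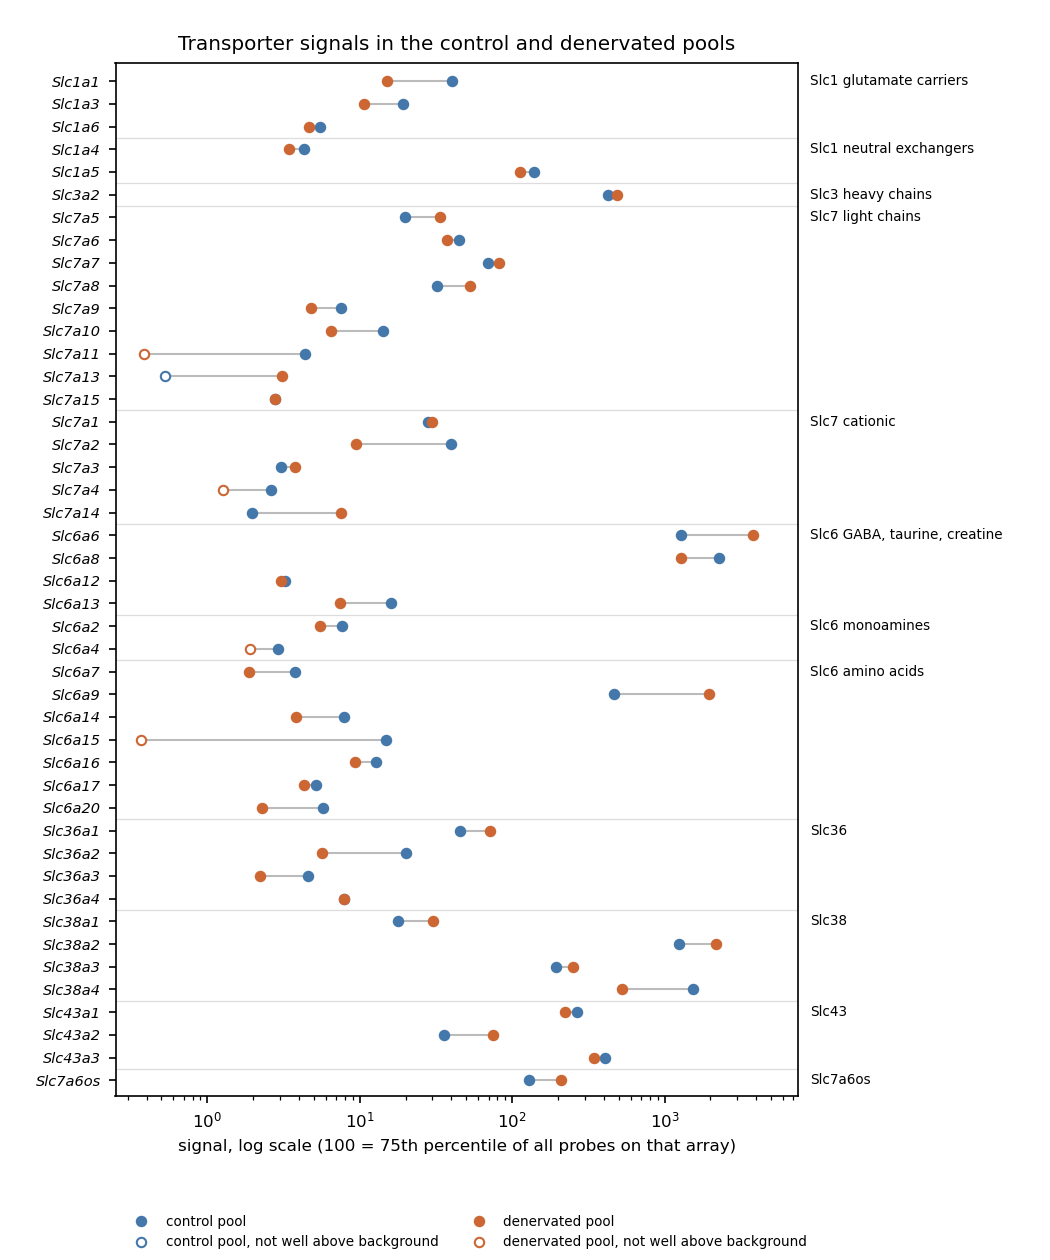
Signals of members above background on at least 1 array, as far as they are reported here, on a logarithmic axis, with the control pool in blue and the denervated pool in orange. Open points are signals not well above background. Slc6a9, Slc6a6 and Slc43a2 lie to the right in the denervated pool and Slc7a2, Slc36a2, Slc38a4 and Slc1a1 to the left.

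The sodium- and chloride-dependent Slc6 family held the largest difference upward. Slc6a9, the glycine transporter GlyT1, had signals of 469 and 1956. It was 4.17-fold higher after denervation, a log2 difference of 2.06 ± 0.20 (transcript NM_008135, probe on chromosome 4 at 117367162 to 117367221, mm8). Its value lay between 2.06 and 2.49 under every alternative processing tried. Slc6a6, the taurine transporter, went from 1284.0 to 3807, a difference of 1.57 ± 0.20 or 2.97-fold (NM_009320, chromosome 6 at 91724130 to 91724189, mm8). Its second probe, with signals of 102 and 283, gave 1.47 ± 0.20. Both probes of the taurine carrier were therefore past 2-fold in the same direction.

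Other Slc6 genes were lower. Slc6a8, the creatine transporter through which muscle takes up its creatine, had signals of 2276 and 1285 and a difference of -0.83 ± 0.20, short of 2-fold. It stayed below 0 with spike-in scaling, at -0.42. Slc6a13, a GABA and taurine carrier known as GAT2, had signals of 16.1 and 7.41 and a difference of -1.12 ± 0.22, with -1.01 ± 0.23 by its second probe. The amino acid carriers Slc6a20 (5.76 and 2.30, -1.33 ± 0.34), Slc6a14 (7.85 and 3.80, -1.05 ± 0.27) and Slc6a7 (3.78 and 1.88, -1.01 ± 0.38) had low signals on both arrays. All 4 of these fell short of 2-fold with spike-in scaling, at -0.72, -0.92, -0.65 and -0.61. RefSeq names the Slc6a20 transcript Slc6a20b. The related Slc6a20a, listed under an older name, was dim on both arrays, at 0.368 and 0.369.

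Some carriers of this family were detected in the control pool only. Slc6a15, a sodium-dependent carrier of branched-chain amino acids and proline, had a control signal of 14.8 and was not well above background after denervation, at 0.367. Set against 1.68, the lowest signal well above background on the denervated array, the control signal was 8.78-fold higher. Such bounds carry no error estimate, and a probe above this lowest signal can still be dim, as Slc6a4 was at 1.89. This Slc6a15 probe (NM_175328) lies on chromosome 10 at 102848442 to 102848501, mm8. The other Slc6a15 probe went from 7.65 to 0.369 and gave a bound of 4.54-fold. Slc6a4, the serotonin transporter, had signals of 2.90 and 1.89 with a bound of 1.53-fold. Across the array 4.4% of genes were above background with control RNA only and 1.87% with denervated RNA only. Of the 19 Slc6 genes, 11 were measured, 9 of them below 0, or 7 with spike-in scaling. Among all 14747 measured genes 8396 were below 0, and their median was 0.29 with spike-in scaling. The betaine carrier Slc6a12, the noradrenaline transporter Slc6a2, Slc6a16 and the vesicular carrier Slc6a17 ranged from -0.48 to -0.10 by their brightest probes, and the other probes of Slc6a17 gave -0.83 ± 0.31 and -0.66 ± 0.34. Slc6a3, Slc6a5, Slc6a11, Slc6a18 and Slc6a19 were not well above background on either array.

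Cationic carriers of the Slc7 family differed from each other. Slc7a2, the arginine and lysine carrier CAT2, had signals of 39.8 and 9.40. It was 4.23-fold lower after denervation (-2.08 ± 0.21, NM_007514, chromosome 8 at 42416332 to 42416391, mm8), the lowest of the 40 members. Its range over the alternatives was -2.08 to -1.57. Slc7a1, the widely expressed arginine carrier CAT1, gave 28.0 and 29.7, a difference of 0.082 ± 0.21, and its dimmer probe gave -0.58 ± 0.24. The dim Slc7a3, or CAT3, stood at 0.32 ± 0.30. Slc7a4, a relative with no settled substrate, was above background with control RNA only, at 2.63 and 1.27, a bound of 1.56-fold. Slc7a14, a lysosomal relative, is unsettled: its probe with the higher mean signal went from 1.96 to 7.53 (1.94 ± 0.35), while its other probe went from 2.60 to 2.29 (-0.18 ± 0.41). With another background correction, described at the end, the first probe gave 0.35.

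The heteromeric transporters pair a heavy chain with a light chain. The heavy chain gene Slc3a2, which encodes the CD98 subunit shared by several exchangers, had signals of 424 and 487 and a difference of 0.20 ± 0.20, no larger than its technical error. Its dim second probe gave 0.071 ± 0.21. A pair of its partners stood higher without reaching 2-fold. Slc7a5, the leucine exchanger LAT1, went from 19.9 to 33.6 (0.76 ± 0.21), and Slc7a8, the related LAT2, from 32.0 to 52.8 (0.72 ± 0.20). With spike-in scaling they stood at 1.16 and 1.12. Slc7a7, the y+LAT1 chain that exports cationic amino acids, stood at 0.24 ± 0.20. For Slc7a6, the similar y+LAT2 chain, the brightest probe gave -0.27 ± 0.21 and the second 0.78 ± 0.21, so its direction differs by probe.

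The remaining light chains had low signals or none well above background. Slc7a10, the Asc-1 exchanger of small neutral amino acids, had signals of 14.2 and 6.45 and a difference of -1.14 ± 0.23, or -0.74 with spike-in scaling. Slc7a9, the cystine carrier of kidney and gut, stood at -0.66 ± 0.25, and the mouse gene Slc7a15 near 0 (signals of 2.80 on both arrays). Slc7a11, the cystine and glutamate exchanger xCT, was above background by 1 of its 4 probes and with control RNA only, at 4.35 and 0.382, a bound of 2.58-fold. Slc7a13, a carrier of aspartate and glutamate in kidney, was the only member above background with denervated RNA alone, at 0.524 and 3.1, a bound of 1.68-fold, and its other probe was dim on both arrays. Slc7a12 and the kidney heavy chain gene Slc3a1 were not well above background on either array. Slc7a6os stood at 0.70 ± 0.20.

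**Figure D2:**
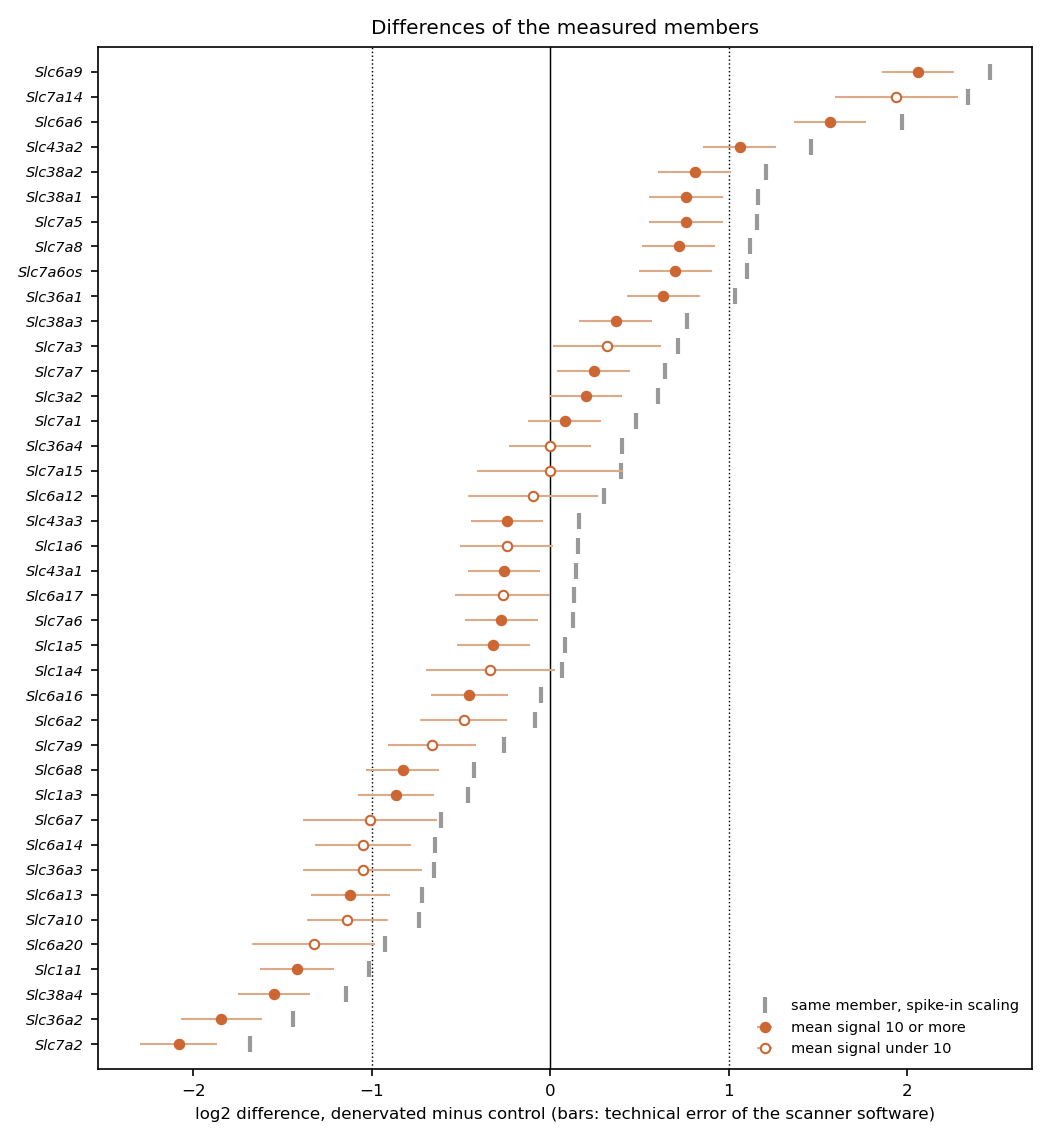
Log2 difference, denervated minus control, of the 40 measured members, with the technical error as bars and dotted lines at 2-fold. Open points have a mean signal under 10, and grey ticks give the same member with spike-in scaling, 0.40 to the right. The points run from -2.08 for Slc7a2 to 2.06 for Slc6a9, and 5 of the 10 members past the lower line are open.

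Glutamate carriers of the Slc1 family were lower or near 0. Slc1a1, the glutamate and cysteine carrier EAAT3, had signals of 40.4 and 15.1, a difference of -1.42 ± 0.21 or 2.67-fold lower (NM_009199, chromosome 19 at 28979839 to 28979898, mm8). A second probe of this gene gave -1.15 ± 0.22. Slc1a3, the glial glutamate carrier GLAST, went from 19.3 to 10.6 (-0.86 ± 0.21), with -1.28 ± 0.23 by its second probe. Slc1a6, the EAAT4 carrier known from cerebellum, stood at -0.24 ± 0.26. The neutral exchangers Slc1a5, or ASCT2, which carries glutamine (140 and 112, -0.32 ± 0.20), and Slc1a4, or ASCT1 (4.32 and 3.42, -0.34 ± 0.36), lay close together. The second Slc1a4 probe went the other way. It was above background with denervated RNA only, at 1.73 and 2.61, a bound of 1.41-fold. All 5 measured Slc1 genes were below 0 by their brightest probes, as were 8396 of all 14747 measured genes. With spike-in scaling only Slc1a1 (-1.01) and Slc1a3 remained below 0. Slc1a2, the main glutamate carrier of astrocytes, and Slc1a7 were not well above background.

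Sodium-coupled neutral carriers of the Slc38 family divided. Slc38a2, the SNAT2 carrier that supplies glutamine, alanine and other neutral amino acids to muscle, had signals of 1243 and 2179 and a difference of 0.81 ± 0.20. Its 4 measured probes gave 0.73 to 1.12. Slc38a1, or SNAT1, went from 17.9 to 30.4 (0.76 ± 0.21), with 0.73 ± 0.22 by its second probe. With spike-in scaling these 2 genes stood at 1.21 and 1.16, past 2-fold. Slc38a3, the glutamine carrier SNAT3, stood at 0.37 ± 0.20. Slc38a4, the SNAT4 carrier, which is imprinted in the mouse, went the other way, from 1529.6 to 524. That is 2.92-fold lower (-1.55 ± 0.20, NM_027052, chromosome 15 at 96823085 to 96823144, mm8), but its dimmer probe, with signals of 102 and 85.5, gave only -0.26 ± 0.20. Slc38a5 was not well above background.

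**Figure D3:**
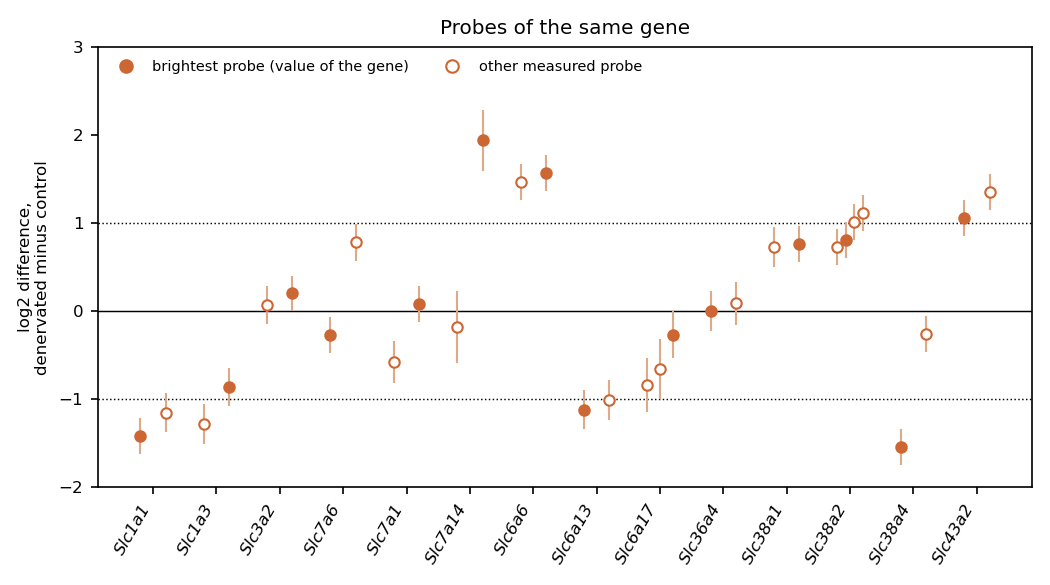
Log2 difference of every measured probe for the 14 members with 2 or more measured probes, with the technical error as bars. Filled points are the brightest probe, whose value the gene takes. Slc6a6, Slc43a2 and Slc38a2 hold close together, Slc38a4 spans 1.29, and the probes of Slc7a14, Slc7a6 and Slc7a1 lie on both sides of 0.

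Among proton-coupled carriers, Slc36a2, the PAT2 carrier of glycine, alanine and proline, had signals of 20.2 and 5.65 and was 3.58-fold lower in the denervated pool (-1.84 ± 0.23, NM_153170, chromosome 11 at 55002055 to 55002114, mm8). Its neighbour Slc36a3 had low signals, at 4.61 and 2.23 (-1.05 ± 0.33, or -0.65 with spike-in scaling). Slc36a1, the lysosomal and surface carrier PAT1, stood higher instead, from 45.7 to 71.0 (0.64 ± 0.20, or 1.04 with spike-in scaling). The other probes of Slc36a1 (0.844 and 1.14) and of Slc36a2 (1.19 and 0.432) were dim on both arrays. Slc36a4, a related carrier, stood near 0 (signals of 7.90 on both arrays). In the Slc43 family, Slc43a2, the large neutral amino acid carrier LAT4, went from 35.9 to 75.1, a difference of 1.06 ± 0.20 or 2.09-fold, with 1.36 ± 0.21 by its second probe. It fell short of 2-fold with the other background correction, at 0.89. Its relatives Slc43a1, or LAT3 (268 and 224, -0.26 ± 0.20), and Slc43a3, which carries nucleobases (406 and 344, -0.24 ± 0.20), had small differences that turned positive with spike-in scaling.

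Where a gene had several probes they mostly pointed one way. Of 14 members with 2 or more measured probes, all probes lay on the same side of 0 in 11, and 9 held within 0.5 on the log2 scale. Neighbouring genes did not share a direction throughout. On chromosome 11 the probe of Slc36a2 lies 77.3 kb from that of Slc36a1 (-1.84 against 0.64) and 7.20 kb from that of Slc36a3. On chromosome 15 the probe of Slc38a2 lies 112 kb from that of Slc38a1, with 0.81 and 0.76, and 307 kb from that of Slc38a4, at -1.55. On chromosome 6 Slc6a13 (-1.12) and Slc6a12 (-0.10) have probes 27.9 kb apart. On chromosome 2 Slc43a1 and Slc43a3 have probes 94.7 kb apart and nearly equal values.

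The part of each pool's RNA that came from fibres or from other cells cannot be read from whole muscle, where fewer cells of a type and less RNA per cell cannot be told apart. All 12 fibre genes checked, among them skeletal actin (Acta1) and creatine kinase (Ckm), were bright on both arrays, at -0.73 to -0.17. Of 18 macrophage and myeloid markers, 16 were higher by 2-fold or more after denervation and none was lower by that much (median 1.53). Their summed signal was 2662 and 7975, and each was well above background on both arrays. The lysozyme genes Lyz2 and Lyz1 stood at 1.48 and 1.39. Macrophages are known to express Slc7a7, Slc7a8 and, when activated, Slc7a2 and Slc7a11, which stood at 0.24, 0.72 and -2.08 and, for the last, above background with control RNA only. The part of these cells in the values was not tested.

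Fat cell markers stood below 0, as did a pair of carriers known from fat. Slc7a10 and Slc36a2 are known as surface markers of white and of brown or beige adipocytes. All 8 adipocyte markers checked were below 0, from -0.95 to -0.09 (median -0.61), none was 2-fold lower, and their summed signal was 34280 and 30374. Most of that sum came from Car3 (24849 and 23354, -0.090) and Fabp4 (9044 and 6772, -0.42), so it says little about the dimmer markers. Car3 also set the upper end of the range, and in whole muscle it is not specific to fat cells. Slc1a3 is known from glia. Of 14 Schwann cell and nerve markers, 10 were measured, with 5 past 2-fold lower and 1, Ngfr, past 2-fold higher (median -1.05), and the axonal neurofilament genes Nefm and Nefh were not well above background. Their summed signal was 1436 and 812, and the myelin genes Pmp22 and Mbp stood at -1.55 and -1.38. The 12 endothelial markers had a median of -0.60 with 1 past 2-fold lower and a summed signal of 5576 and 3502, with Flt1 at -0.73 and Egfl7 at -0.74. The part of these cells in the carriers' values was not tested.

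The 11 smooth muscle and pericyte markers had a median of -0.69, with Acta2 at -0.54 and Tagln at -0.81, and none passed 2-fold. The Acta2 signals, 38351 and 26321, were in the range of the fibre genes. Whether its probe also reads skeletal actin was not tested. The 12 fibroblast markers had a median of 0.12, with 1 past 2-fold in each direction. Of 8 measured satellite cell and myoblast markers, 3 were past 2-fold higher and none past 2-fold lower (median 0.85). The 3 were Myog, Myod1 and Chrdl2. Pax7 and Vcam1 were lower, at -0.80 and -0.44, and Myf5 was not well above background on either array. The list thus has no single direction, and whether the number of these cells differed was not tested. The 4 red blood cell genes on the array had a median of -0.57, with 1 past 2-fold lower, and the 5 measured lymphocyte genes of -0.46.

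Related genes outside these families were compared as lists. Of 20 measured transporters of amino acids and related molecules in other families, 3 were past 2-fold higher and 1 past 2-fold lower (median 0.31). The mitochondrial aspartate and glutamate carrier Slc25a12 was lower at -1.11 ± 0.20, and the aromatic amino acid carrier Slc16a10 stood at 1.04 ± 0.20. Of 37 amino acid sensing and mTORC1 genes, all measured, 4 were past 2-fold higher and none past 2-fold lower (median -0.037). Eif4ebp1, the translation inhibitor that mTORC1 phosphorylates, stood at 1.80 ± 0.20, the arginine sensor relative Castor2 at 1.50 ± 0.20 and the kinase gene Mtor itself at 1.04 ± 0.20. That list also holds Sestd1, at -0.17, which is not known as a member of the pathway.

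Genes of the amino acid response went both ways. Of 28 measured genes on the ATF4 list, 6 were past 2-fold higher and 3 past 2-fold lower, with a median of -0.076. Atf3, a stress transcription factor, stood at 2.01 ± 0.20 and Eif4ebp1 again at 1.80, whereas the serine synthesis enzyme Psph was at -1.60 ± 0.20. The shares past 2-fold on these lists are to be read beside the 7.01% and 8.51% of all genes. Atf4 itself, named after its value was seen, had signals of 928 and 576, a difference of -0.69 ± 0.20.

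**Figure D4:**
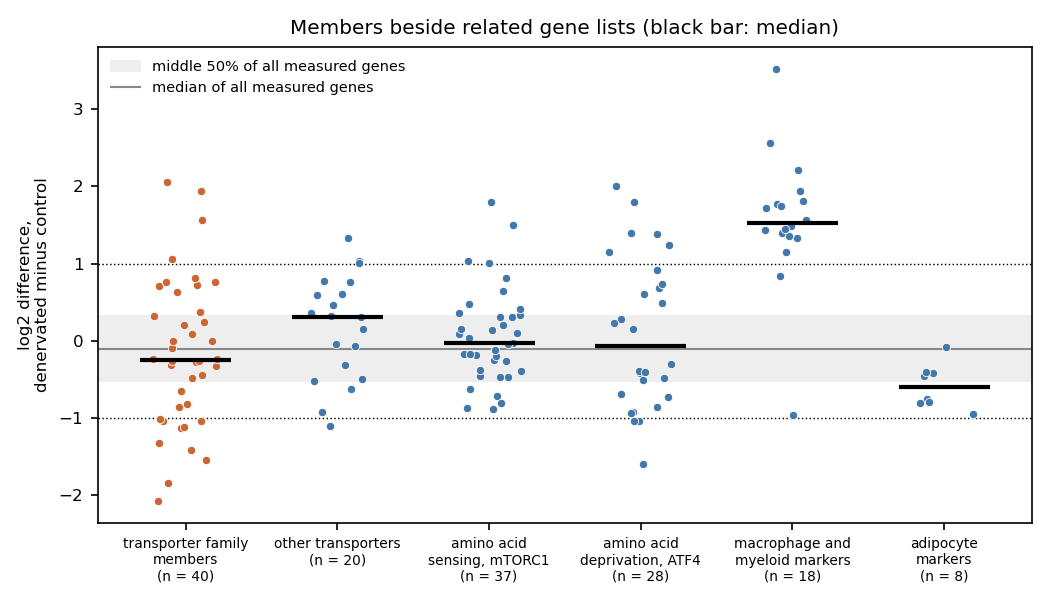
Log2 differences of the 40 measured members, of related gene lists and of macrophage and adipocyte markers, with a point per gene, a black bar at each median and a grey band for the middle 50% of all measured genes. The members spread from -2.08 to 2.06 around a median of -0.25, while the macrophage markers centre on 1.53.

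The amino acid response element, a short sequence bound by ATF4 with a C/EBP partner, was looked for in the promoters of the members as a description. RefSeq promoter windows (250 bases before to 50 after the annotated start, assembly GRCm38.p6) were found for 38 members. The core TGATGNAA, on either strand, occurred in a window of 3 of them, which is 7.89%, against 4.51% of the 27025 genes with a window. The 3 were Slc7a11, Slc1a4 and Slc7a7, and none of them was a measured member past 2-fold. Their windows are shown because the element differs in number and place among them, with each match in capitals, on the gene's strand from 5′ to 3′.
Slc7a11, chr3:50443564-50443863, minus strand: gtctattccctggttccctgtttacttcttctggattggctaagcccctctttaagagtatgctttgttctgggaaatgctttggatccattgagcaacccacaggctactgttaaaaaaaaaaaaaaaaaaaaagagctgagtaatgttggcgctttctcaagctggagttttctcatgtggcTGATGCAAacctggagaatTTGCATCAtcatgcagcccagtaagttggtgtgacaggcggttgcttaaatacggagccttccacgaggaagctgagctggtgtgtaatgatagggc
Slc1a4, chr11:20332664-20332963, minus strand: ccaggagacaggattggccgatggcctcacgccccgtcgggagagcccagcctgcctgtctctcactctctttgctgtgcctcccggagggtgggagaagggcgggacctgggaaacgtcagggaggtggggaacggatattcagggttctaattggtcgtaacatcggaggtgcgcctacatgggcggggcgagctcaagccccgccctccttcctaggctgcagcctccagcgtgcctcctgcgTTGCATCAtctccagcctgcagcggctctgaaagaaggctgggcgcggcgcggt
Slc7a7, chr14:54417895-54418194, minus strand: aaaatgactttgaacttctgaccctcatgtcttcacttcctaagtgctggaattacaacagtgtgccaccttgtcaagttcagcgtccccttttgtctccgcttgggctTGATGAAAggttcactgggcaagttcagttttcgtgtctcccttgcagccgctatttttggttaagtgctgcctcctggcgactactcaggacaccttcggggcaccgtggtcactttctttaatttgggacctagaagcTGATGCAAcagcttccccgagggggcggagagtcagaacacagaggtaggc
In Slc7a11 the first match starts 66 bases before the annotated start and the second, on the other strand, 47 bases before it. The single match of Slc1a4 spans the start. Slc7a7 has a match starting 141 bases before the start and another across it, and the window of another annotated start downstream holds the latter match again. The windows of Slc6a9, Slc38a2, Slc38a4, Slc43a2 and Slc1a1 had no match, which says only that these letters are not there. No window was found for Slc6a6, Slc7a2 or Slc36a2, so their promoters were not searched.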

How the data were processed

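Messenger RNA was measured on 2 one-colour arrays of 1 slide and scan, 1 for a control pool and 1 for a denervated pool, grouped by their source label. The array's place on the slide and the group therefore cannot be told apart. The authors deposited scanner intensity values from Agilent Feature Extraction, version 9.5 according to the submitters' processing notes and 9.5.3.1 per the file headers. They are background-subtracted and detrended within each array, with dim spots set to a surrogate and no scaling between arrays. The deposited value table, used as an alternative, is a score that equals this intensity scaled to 100 at the array's 75th percentile and rounded (ratio varying by 0.0149% and 0.0151% among spots of high value, column medians 10 and 9), so its scale, centring and direction are known.

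Spots marked as outliers were left out (87 and 81, none of a member), spots of a probe were averaged on the log2 scale, and the 75th percentile over probes (788 and 1063) was subtracted. A gene took its brightest measured probe. Detection reached 70.9% of probes with control RNA and 68.4% with denervated RNA. A gene above background on 1 array got a bound, against the higher of its dim signal and the lowest signal well above background (1.84 and 1.68). Names for all genes came from the files, updated through RefSeq accessions (GRCm38.p6) for 23374 probes, 78 of them member probes, and through unique older symbols; probe positions are those of the files (mm8), whose exon or UTR is not annotated here. Single arrays allow no test, and their number limits the precision; the errors printed carry each spot's error, with the software's preset 10% multiplicative part, through both arrays. Python 3.11.15, pandas 2.3.3, and limma 3.58.1 under R 4.3.3 were used, and the functions were tested on simulated data. Members, lists and settings were chosen with earlier results of these data known. Named members are those past 2-fold, with a bound, among the 10 brightest or on a fixed list of 16; other members and Atf4 were named with their values known. A few items that this rule would name are not reported here. The alternatives concerned scaling, background (normexp, offset 50), dim-probe filters, marked spots and the choice of probe.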

Additional observations from a re-analysis of the deposited data

How the results depend on the processing

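No paired analysis was possible because each group has 1 array. All 10 members at least 2-fold lower stayed below 0 in every alternative that measured them, and all 4 higher members stayed above 0 except Slc7a14, which was at -0.18 by its probe with the smaller difference. The count of higher members was 10 with spike-in scaling and with no scaling and 2 with normexp background, which took Slc43a2 and Slc7a14 below 2-fold. The count of lower members was 4 with spike-in scaling, with normexp background, with the stricter filter on dim probes (at least 4 times the lowest signal well above background) and with signal-dependent centring, 5 with quantile scaling, and 3 with no scaling. Over all genes the shares higher and lower were 14.8% and 4.12% with spike-in scaling, 15.7% and 3.87% with no scaling, 5.06% and 5.93% with normexp background, 6.79% and 7.59% with the stricter filter (25 members measured), 8.04% and 6.86% with quantile scaling and 8.58% and 6.55% with signal-dependent centring. Median scaling gave 4 higher and 7 lower members, where 7.66% and 7.57% of all genes were. Spike-in scaling moved every gene up by 0.40 and no scaling by 0.43. Fewer genes were measured under the stricter filter, and the causes of the other moves were not tested. The members' median was 0.15 with spike-in scaling, 0.18 with no scaling, 0.082 with the stricter filter and 0.12 with signal-dependent centring. Slc38a4 was at -0.90 by the mean of its probes and at -0.26 by its probe with the smaller difference, short of 2-fold in both. By brightest probe, Slc7a2, Slc36a2 and Slc38a4 stayed at least 2-fold lower in every scaling and background alternative. Slc6a9 and Slc6a6 stayed at least 2-fold higher in all of these. Signal-dependent centring (a running median over 501 genes) and current gene names were added after the data were seen. Differences of genes under a signal of about 10 rest on few units of signal over background.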

Other observations

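Some family members carry older names in the files and so fall outside the rule on names. RefSeq accessions and older symbols placed 15 further probes in these families, for 9 genes or antisense partners, 1 of them Slc1a2, already a member. Of the 9, 4 were measured. Slc38a9, the lysosomal arginine sensor that signals to mTORC1, had signals of 119 and 213 and a log2 difference of 0.84 ± 0.20. Slc38a10 stood at -0.20 ± 0.20, Slc38a7, a lysosomal glutamine carrier, at -0.11 ± 0.21, and Slc38a11 at -0.12 ± 0.30. Slc38a8 was detected with control RNA alone, with a signal of 4.07 there and a bound of 2.03-fold. With current names the measured members numbered 44, still with 4 higher and 10 lower.

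Among genes of the ATF4 list, Fgf21, a hormone released by stressed muscle, was detected with denervated RNA alone, at 0.663 and 8.39, a bound of 4.55-fold. Of the serine synthesis enzymes, Phgdh (-1.05) and Psph (-1.60) were lower while Psat1 stood at 1.15.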
